A study of Homo sapiens with 32 samples.

Results

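The probe sets described here were bright on the Human Exon 1.0 ST array although the array annotation gave them no gene symbol. A probe set, which is a small group of probes against 1 stretch of transcript, was a member when it had no symbol and when its mean exon-level RMA value (a log2 measure of brightness) was 8 or more in the 4 R1881 or in the 4 steroid-deplete arrays. The rule found 7804 members, 2.17% of the 360393 probe sets without a symbol and 1.26% of all 620335. The members were thus chosen by their exon-level values in these same arrays, so the levels and the differences that follow are given as descriptions unless a test is named. The arrays held RNA of LNCaP cells, an established androgen-sensitive line from a prostate cancer metastasis, grown in RPMI-1640 medium with 10% charcoal-stripped serum. All cells were first kept for 72 hours in that steroid-deplete medium. Those of the 4 R1881 arrays were then given 10 nM R1881, a synthetic androgen, for 24 hours, and those of the 4 steroid-deplete arrays were not. The labels give the controls only the 72 hours, while the study's methods add the same 24 hours without R1881. All 8 arrays came from this 1 line. The labels number the replicates from 1 to 4, and the study's methods describe cell treatments in quadruplicate (n = 4 per arm). Neither says whether these were cultures grown on separate occasions, so the p-values measure the spread between these arrays.

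Androgens act through the androgen receptor, a transcription factor that binds its hormone, enters the nucleus and changes the transcription of many genes in prostate epithelium. Exon arrays carry probe sets for annotated exons and also for sequences known only from cDNA fragments or from gene prediction, many of which lie in introns, in untranslated ends or outside any annotated gene. Signal at such a probe set can come from unspliced RNA, from an unannotated exon, from a noncoding RNA or from a probe that matches several places. The files pair these probe sets with no symbol, no position and no probe sequence. Their place was therefore read from the identifiers, which follow the genome by chromosome and strand: of 12125 neighbouring pairs of named genes, 99.4% were on the same chromosome in the RefSeq table and 96.7% also on the same strand. The nearest probe sets with 1 symbol on each side, called the flanks here, were the landmarks for 7798 members, and the other 6 had a flank on 1 side only.

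Some members followed the transcript clusters (the gene-level units of the array) of genes that host microRNAs, and 3 such hosts are described with the results. MicroRNAs are short RNAs that repress mRNAs through their seed, bases 2 to 8, which pairs with the target. The mature sequences encoded at these hosts are shown from RefSeq (GRCh38.p14, while the array used hg18) because 5 of the 7 share 1 seed, that of the let-7 family. The seed is in capitals.
hsa-let-7a-5p: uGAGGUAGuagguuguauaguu
hsa-let-7b-5p: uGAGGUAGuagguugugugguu
hsa-let-7c-5p: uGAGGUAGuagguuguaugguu
hsa-let-7f-5p: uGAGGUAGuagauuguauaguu
hsa-miR-98-5p: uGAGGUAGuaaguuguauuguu
hsa-miR-99a-5p: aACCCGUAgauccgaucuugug
hsa-miR-125b-5p: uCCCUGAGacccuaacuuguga
The let-7a and let-7b sequences lie on the plus strand at chr22:46112752-46112773 and chr22:46113691-46113712. Those of miR-99a, let-7c and miR-125b lie on the plus strand at chr21:16539101-16539122, chr21:16539838-16539859 and chr21:16590253-16590274. Those of miR-98 and let-7f lie on the minus strand at chrX:53556299-53556320 and chrX:53557246-53557267. The arrays measured host transcripts, not the mature microRNAs.

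The 8 arrays had median exon-level values of 4.63 to 4.73, and no pair held identical values. In a principal component analysis of the members the treatments split along the first axis (80.7% of variance). The rule favours such a split, since it admits probe sets bright only with R1881 or only without it. The split and its share of variance therefore describe the members and not the arrays as a whole. On the second axis (6.0%) R1881 replicate 4 lay apart at 20.9 against -11.0 to 8.3 for the other arrays. At gene level, 4 of 9 luminal prostate markers had a cluster with that symbol alone. Among them were KLK3 (mean 10.41 in steroid-deplete and 12.24 in R1881 arrays) and HOXB13 (11.58 and 11.13). The 7 stromal, blood and endothelial markers with such a cluster ranged from 2.26 (PTPRC) to 6.58 (COL1A1). None of the 3 basal markers had such a cluster, and clusters with several symbols were not used. In RNA from whole cultures, fewer cells of a kind and less RNA per cell cannot be told apart.

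Most members were bright with and without androgen. Of the 7804, 5217 had a mean of 8 or more in both treatments, 1296 in the R1881 arrays only and 1291 in the steroid-deplete arrays only. The mean over the 8 arrays ranged from 5.4 to 13.39 with a median of 8.43, and 710 members had 10 or more and 55 had 12 or more. The limit cut through a dense part of the scale: 3246 members had a higher group mean between 8 and 8.5, and 5358 other probe sets without a symbol lay between 7.5 and 8. Just inside it were 3904291 (between RBM39 and SCAND1, 8.0), 3824206 (within MRPL34, 8.0001) and 2878647 (between SLC25A2 and DIAPH1, 8.0009), and just outside were 3563106 (between MDGA2 and RPS29, 7.9998), 3652545 (between POLR3E and HS3ST2, 7.9997) and 2513385 (between GCA and SCN2A, 7.9994). No filter on low values was applied, so every member entered the counts.

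The difference between treatments (mean of the R1881 arrays minus mean of the steroid-deplete arrays, log2) ranged from -5.97 to 6.73 with a median of 0.05. It was 1 or more in 572 members (7.33%) and -1 or less in 558 (7.15%), while over all probe sets 1.88% were higher and 2.89% lower by this limit. Brightness in either treatment favours large differences, and among the 59597 probe sets with a symbol that passed the same limit 5.89% were higher and 5.17% lower. Of the members bright in both treatments, 121 (2.32%) were higher and 93 (1.78%) lower, against 3.41% and 2.23% of probe sets with a symbol bright in both. The rest of these members passed the brightness limit only in the treatment where they were higher, which fixed the direction: 451 of the 1296 members bright in R1881 arrays alone were higher by at least 1, and 465 of the 1291 bright in steroid-deplete arrays alone were lower. The values of the 2 treatments did not overlap in 2846 of the 7804 members and in 11.4% of all probe sets, and the rule favours such members, since brightness in 1 treatment is enough.

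**Figure D1:**
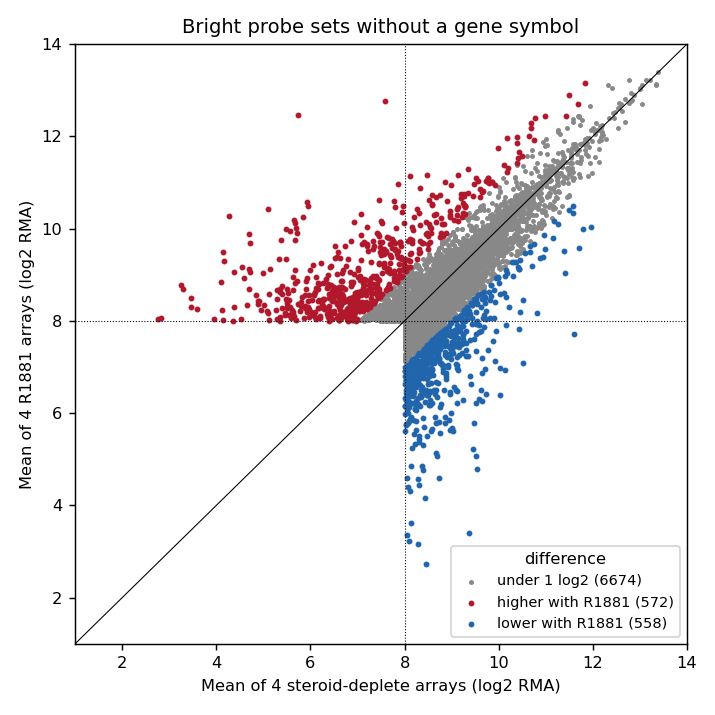
Mean exon-level value of each of the 7804 members in the 4 steroid-deplete arrays (x axis, log2 RMA) against that in the 4 R1881 arrays (y axis, log2 RMA), with the limit of 8 dotted and equality as a line. The empty lower left corner is set by the rule, and the 572 higher (red) and 558 lower (blue) members lie off a dense band around equality.

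A test was run only for the members bright in both treatments, whose selection did not require a difference. With limma's moderated test, adjusted over all 620335 probe sets by Benjamini-Hochberg, 72 of the 5217 (1.38%) passed both limits (adjusted p below 0.005, 2-fold or more) as higher in R1881 arrays and 34 (0.652%) as lower, beside 0.679% and 0.657% of all probe sets. Among 45912 probe sets with a symbol that were bright in both treatments, 2.21% were higher and 1.1% were lower. The differences of the 106 called members ran from -2.65 to 3.01. With any 1 array left out, 32 to 50 members were called higher and 10 to 16 lower. Of the 106, 23 lay within 1 gene symbol, and the others lay between the probe sets of different genes. Most members lay between genes in any case: 29.2% of all members and 35.1% of all probe sets without a symbol lay within 1 symbol. This share was not counted for the 5217.

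The highest differences were mainly at 2 genes that androgens induce in prostate cells. NCAPD3 encodes a subunit of condensin II, which compacts chromosomes, and 4 of the 10 members with the highest differences followed its transcript cluster. Member 3399606, flanked on both sides by NCAPD3 probe sets, had 6.30, 5.59, 5.91 and 5.15 in the steroid-deplete arrays and 12.58, 12.56, 12.42 and 12.29 in the R1881 arrays. All 4 values were above 12 with R1881 and the highest without it was 6.30, a difference of 6.73 ± 0.25 (SE, n = 4 per group). Its flanks, 3399605 and 3399607, differed by 3.83 (adjusted p = 7.2e-06) and 3.93 (adjusted p = 3.7e-06), and the gene-level NCAPD3 value by 4.43. Members 3399561 and 3399575, also within the gene, differed by 5.33 and 5.20. Member 3399613, between NCAPD3 and THYN1, had 7.35 to 7.89 without and 12.75 to 12.79 with R1881, a difference of 5.19, while the flank on the THYN1 side differed by 0.50 (adjusted p = 0.52).

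FKBP5, which encodes an immunophilin that acts as a co-chaperone of steroid receptors, held another 4 of these 10 members. Member 2951614 had 4.29, 4.52, 4.70 and 3.55 without and 9.97, 10.54, 10.13 and 10.48 with R1881, a difference of 6.01 ± 0.27. Members 2951606, 2951626 and 2951623 differed by 5.38, 5.27 and 5.22. The named flanks of all 4, 2951601 and 2951630, differed by 5.53 (adjusted p = 1.1e-05) and 2.64 (adjusted p = 2.2e-05).

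The remaining 2 of the 10 stood apart from their flanks. Member 3390005 lay within SLC35F2, a solute carrier gene, and had 4.27, 4.99, 3.90 and 3.38 against 9.58, 9.31, 9.73 and 9.37 in R1881 arrays, a difference of 5.37 ± 0.31. Its adjacent flanks differed by 0.95 (adjusted p = 0.025) and -0.03 (adjusted p = 0.98), and the gene-level SLC35F2 value by 2.20 (adjusted p = 3.4e-10). Member 3455129 lay between ACVR1B, an activin receptor gene, and KRT80, a keratin gene. It had 4.32, 4.21, 2.17 and 2.30 without R1881 and 8.79, 8.89, 8.69 and 8.76 with it, a difference of 5.53 ± 0.47. Its flanks differed by -0.07 and -0.16, but they were dim, with means of 5.1 for ACVR1B (72 identifiers away) and 2.88 for KRT80. The treatments did not overlap in any of these 10 members, which were picked for their differences, beside 11.4% of all probe sets.

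**Figure D2:**
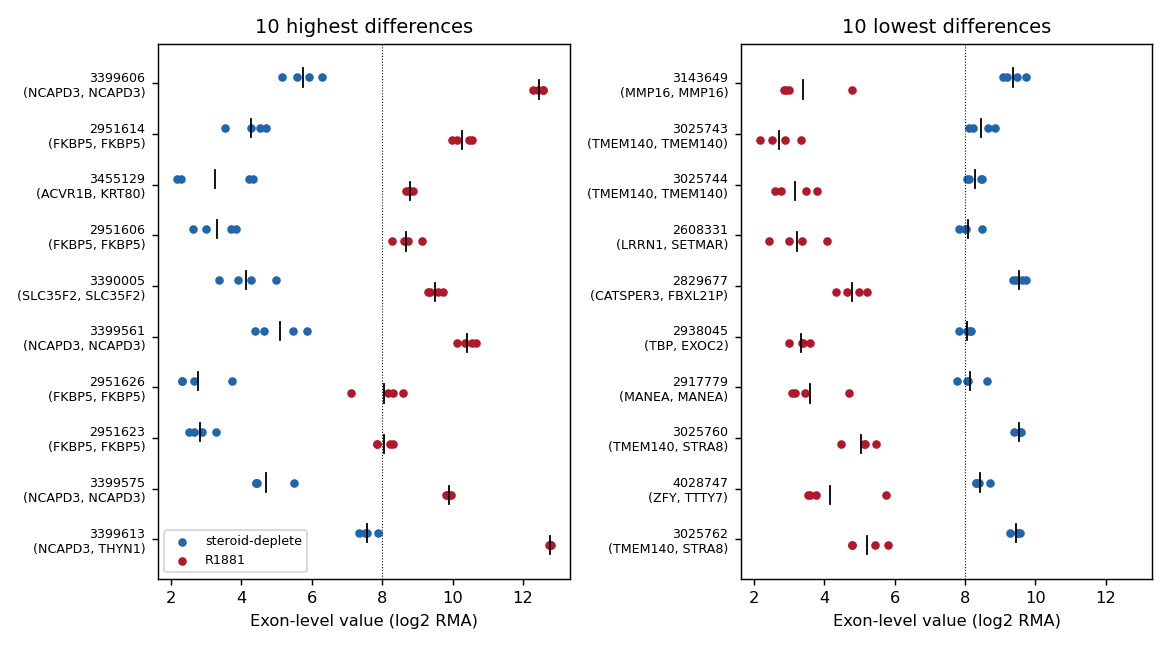
Exon-level value (x axis, log2 RMA) on each steroid-deplete (blue) and R1881 (red) array for the 10 members with the highest and the 10 with the lowest differences, with group means as black ticks, the limit of 8 dotted and the flanking symbols in brackets. In all 20, picked for their differences, the points of the 2 treatments lie apart.

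The 10 lowest differences were found at MMP16, TMEM140, LRRN1 and MANEA and at 3 places between genes whose flanking probe sets did not pass the test. MMP16 encodes a membrane-bound matrix metalloproteinase. Member 3143649 within it had 9.07, 9.73, 9.47 and 9.19 without and 2.86, 3.01, 4.79 and 2.91 with R1881, a difference of -5.97 ± 0.40, and R1881 replicate 3 was the highest of its group. Its flanks differed by -4.10 (adjusted p = 7.0e-05) and -1.75 (adjusted p = 0.01), and the gene by -3.80.

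TMEM140 encodes a membrane protein, and 4 of the 10 followed its cluster, which differed by -3.32 at gene level (adjusted p = 5.2e-11). Member 3025743, between TMEM140 probe sets, had 8.10, 8.64, 8.86 and 8.22 without and 2.89, 3.34, 2.52 and 2.17 with R1881, a difference of -5.73 ± 0.28. Members 3025744, 3025760 and 3025762 differed by -5.11, -4.47 and -4.25. Member 2608331, between LRRN1 (a leucine-rich repeat membrane protein) and SETMAR, differed by -4.86 and the gene-level LRRN1 value by -4.30. Member 2917779 within MANEA, a Golgi mannosidase gene, differed by -4.52 and the gene by -3.10.

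The other 3 had flanks near 0, but most of these flanks were dim or far away. Those of 2829677 had means of 4.53 and 3.86 (36 and 235 identifiers away). Those of 4028747 had means of 5.08 and 4.28 (155 and 286 identifiers away). The EXOC2 flank lay 173 identifiers from 2938045. Member 2829677, between CATSPER3 (a sperm calcium channel subunit) and the pseudogene FBXL21P, had 9.35, 9.44, 9.61 and 9.74 without and 4.98, 4.66, 4.34 and 5.22 with R1881. Its difference was -4.74 ± 0.23, while the flanks differed by 0.15 and -0.39. Member 2938045, between TBP, the TATA-binding protein gene, and EXOC2, an exocyst subunit gene, had 7.83 to 8.16 without and 3.00 to 3.61 with R1881, a difference of -4.70 ± 0.20, while the flanks differed by -0.10 and -0.36. Member 4028747, between ZFY and TTTY7, differed by -4.27 ± 0.44 while its flanks differed by 0.12 and 0.33.

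The brightest members differed little. Of the 10 with the highest mean over the 8 arrays, 9 differed by -0.23 to 0.09, and none of the 10 passed the test (adjusted p of 0.27 or more with limma). Member 4037585 had 13.33 to 13.44 without and 13.32 to 13.43 with R1881, and it lay with 4037589 and 4037587 before ND1, the first named probe set of the mitochondrial genome in the identifier order. Mitochondrial transcripts are among the most abundant in any cell. The 40 members beside a mitochondrial gene differed by -0.41 to 0.33, with 7 at 12 or more and all under the 2-fold limit of a call. Members 2891067 and 2891078, between TRIM7 and the small nucleolar RNA gene SNORD95, had 13.27 to 13.38 without and 12.96 to 13.23 with R1881, and both differed by -0.23 (adjusted p = 0.6). The groups did not overlap in either, beside 11.4% of all probe sets. The others were 3094516 within DDHD2 (a phospholipase gene), 2695318 within ASTE1, 2507747 between UBXN4 and THSD7B, 3261718 between FBXL15 and SLC68A1, and 3127986 between ENTPD4 and NKX2-6. Member 3127986 had 12.88, 12.89, 12.59 and 12.71 without and 13.31, 13.16, 13.33 and 13.04 with R1881. Its groups also did not overlap, and its difference of 0.44 ± 0.18 was the largest of the 10 (adjusted p = 0.27). The cluster without a symbol that precedes it differed by 0.90 at gene level (adjusted p = 3.8e-06, under 2-fold).

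Members within a gene followed their flanks more closely than members between genes. Both flanks carried the same symbol for 2279 members (29.2%), against 35.1% of all probe sets without a symbol. This share was 43.2% for the higher members (247 of 572), 36.7% for the lower (205 of 558) and 27.4% for those that differed by less than 1. Over the 2279, the member's difference and the mean difference of its flanks correlated with r = 0.889, and over 5519 members with different symbols on the 2 sides with r = 0.288. These coefficients describe probe sets on the same 8 arrays, many of them of 1 gene, and are not tests.

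Members that differed by 1 or more showed the same division. Of the 247 higher members within a gene, 191 had flanks that were also higher by 1 or more on average, with a median of 1.91 for the member and 1.53 for the flanks. Of the 325 higher members between genes, 32 had such flanks and 222 had flanks within 0.5 of no difference, with medians of 1.61 and 0.1. Among the lower members, 108 of 205 within a gene and 34 of 353 between genes had flanks lower by 1 or more. The flanks of the lower members between genes were within 0.5 in 250 cases.

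**Figure D3:**
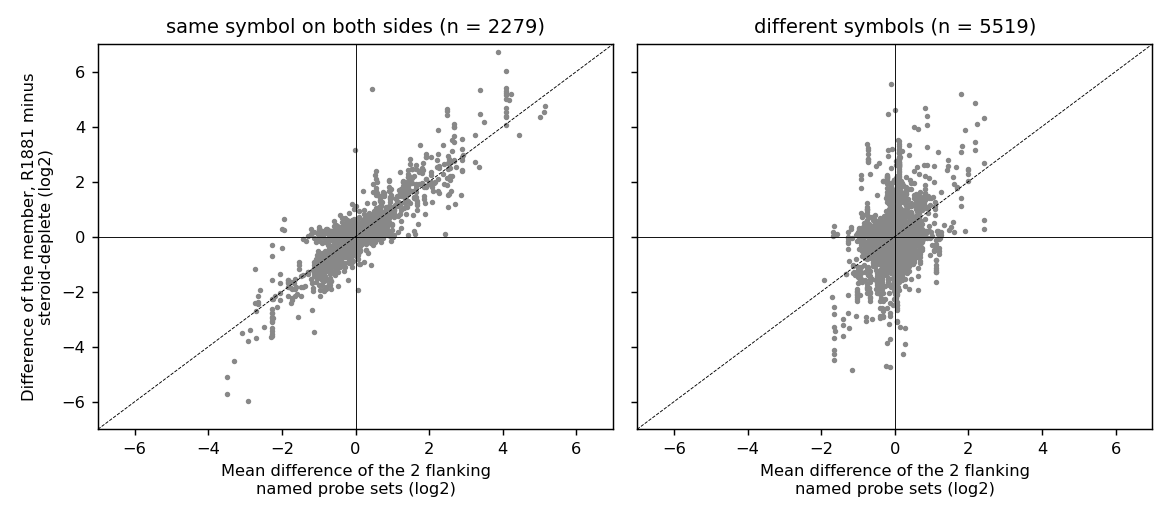
Difference of each member (y axis, log2, R1881 minus steroid-deplete) against the mean difference of its 2 flanking named probe sets (x axis, log2), for 2279 members with the same symbol on both sides (left) and 5519 with different symbols (right). The points of the left panel follow the dashed line of equality (r = 0.889), and those of the right panel spread up and down at flank values near 0 (r = 0.288).

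The members fell into 3882 intervals between named flanks, of which 2728 held 1 member and 109 held 10 or more. These intervals were sorted after their values had been seen, and members of 1 interval can belong to 1 transcript, so they are not replicates. The median difference was 1 or more in 12 of the 109 and -1 or less in another 12, and only the interval from TMEM14A to GCLC held members that differed by at least 1 in both directions (1 higher and 5 lower of 12).

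Inside named genes, the members of 1 interval mostly differed in the same direction. Where a member passed the brightness limit in 1 treatment only, here and in the intervals below, that fixed its direction. None of the 13 within ACSL3 and only 1 of the 11 within ABHD2 were bright in both treatments. All 13 members within FKBP5 were higher, by 4.06 to 6.01, and their mean was 4.00, 4.31, 4.18 and 4.27 in the steroid-deplete arrays and 8.98, 9.39, 9.11 and 8.91 in the R1881 arrays. All 13 within ACSL3, which activates long-chain fatty acids, were higher by 1.93 to 4.11. The same held for all 10 within TMPRSS2, a serine protease gene often fused to ETS genes in prostate cancer (1.51 to 2.94), all 11 within the lipid phosphatase gene PLPP1 (1.49 to 2.44) and all 11 within the hydrolase gene ABHD2 (1.49 to 2.82). Within LIMCH1, 9 of 29 members were higher by 1 or more, with a median of 0.90.

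Within 8 genes, 10 or more members had a median difference of -1 or less. All 11 members within GRB10, an adaptor of insulin and growth factor receptors, had negative differences, from -3.68 to -1.93, with a mean of 8.8, 8.92, 9.12 and 8.68 without and 6.22, 6.28, 6.17 and 5.96 with R1881. All 10 within LRBA, a vesicle trafficking gene, differed by -2.92 to -1.40. Within TLL1, a gene for a secreted metalloprotease, 14 of 16 were lower by 1 or more, with a median of -2.93. For PRKD1, a serine/threonine kinase gene, it was 16 of 20 (median -1.2), for the adhesion molecule gene NCAM2 20 of 26 (median -1.17), for the scaffold gene PPFIA2 8 of 12 (median -1.05) and for the long noncoding RNA gene PVT1 6 of 10 (median -1.15). All 14 members within MAST4, a kinase gene, differed by -1.96 to -1.26, with a mean of 8.56, 8.87, 8.76 and 8.46 without and 7.20, 7.24, 7.20 and 6.82 with R1881, while the gene-level MAST4 value differed by -0.46.

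Between named genes, groups of members differed together, and in 10 of the 11 intervals described next (all but the one beside LRIG1) neither flank passed the test. The interval from KLF14 to PODXL held 33 members, of which 32 were higher by 1 or more, with a median of 2.61. Their mean was 6.28, 6.47, 6.6 and 6.34 in the steroid-deplete arrays and 8.96, 9.06, 8.91 and 8.75 in the R1881 arrays, while the nearest named probe sets differed by 0.12 and 0.09. The treatments did not overlap in any of the 33, beside 11.4% of all probe sets. The rule favours such members, since brightness in 1 treatment is enough. KLF14 encodes a transcription factor and PODXL a sialomucin of the cell surface, and the gene-level PODXL value differed by -0.99.

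A second such group lay between SMARCA4, the gene for the ATPase of a chromatin remodelling complex, and TSPAN16, a tetraspanin gene. Of its 17 members, 16 were higher by 1 or more (median 2.02), with a mean of 8.30, 8.23, 8.23 and 8.52 without and 10.30, 10.10, 10.38 and 10.11 with R1881. Of the 9 bright in both treatments, 8 were called. The nearest named probe sets differed by -0.59 (adjusted p = 0.22) and 0.16 (adjusted p = 0.83). The preceding transcript cluster, which also has no symbol, differed by 1.91 at gene level (adjusted p = 3.3e-09).

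The other intervals with higher members had smaller differences. Between KCNK2 (a potassium channel gene) and SPATA17, 22 of 23 members were higher (median 1.5, 10 of 12 called). Between NSA2 (ribosome assembly) and POLK (a DNA polymerase of lesion bypass), 24 of 26 were higher (median 1.19, 8 of 24 called). Between TTC22 and the deubiquitinase gene USP24, 10 of 11 were higher (median 1.46), and 9 of the 11, all bright in both treatments, were called. These 11 were also among the brightest groups, with a mean of 10.61 to 10.77 without and 11.95 to 12.18 with R1881. Between DAGLB (a diacylglycerol lipase gene) and GRID2IP it was 9 of 13 (median 1.21, 4 of 10 called), and between the glucose transporter gene SLC5A1 and RFPL3 10 of 12 (median 1.32, 3 of 5 called).

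The interval with the most lower members lay between AMACR, whose racemase product is a histological marker of prostate cancer, and RAD1, a DNA damage checkpoint gene. Of its 30 members, 26 were lower by 1 or more (median -1.76, lowest -2.35), with a mean of 8.70, 8.99, 9.09 and 8.70 without and 7.22, 7.60, 7.10 and 6.97 with R1881. The flanks differed by 0.21 (adjusted p = 0.67) and -0.13 (adjusted p = 0.86). Of the clusters without a symbol that precede these members, the first differed by 0.67 at gene level (adjusted p = 7.6e-05). The other differed by -0.84 (adjusted p = 8.0e-05), both under 2-fold. Of the 5 members bright in both treatments, 3 were called. Between ZNF674 and LINC01545, 9 of 11 were lower (median -1.5). Between ADAMTS9 and LRIG1 it was 6 of 11 (median -1.03), there beside a gene that moved the other way, since LRIG1, an inhibitor of growth factor receptors, differed by 1.81 at gene level. The cluster without a symbol that precedes these 11 differed by -0.82 (adjusted p = 1.0e-05, under 2-fold). Between TCHP and IFT81, 5 of 10 were lower (median -1.01).

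The intervals between genes with the most members differed little. The 55 members between RRM2B and KLF10 differed by -0.76 to 0.04 (median -0.51), the 53 between SLMAP and ABHD6 by -1.14 to 0.02 (median -0.78), and the 44 between STRN3 and HEATR5A by -0.74 to -0.16 (median -0.50). Of these 152 members, 46, 45 and 38 were bright in both treatments and none was called. Only the interval from SLMAP to ABHD6 held a difference of the 2-fold that a call needs. The treatments did not overlap in 39, 50 and 28 of them, beside 11.4% of all probe sets and 2846 of the 7804 members. The preceding clusters, which have no symbol, differed by -0.51 (adjusted p = 0.00073), -0.79 (adjusted p = 6.0e-05) and -0.51 (adjusted p = 0.0008), all under 2-fold. The KLF10 flank differed by -1.71 (adjusted p = 0.003).

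**Figure D4:**
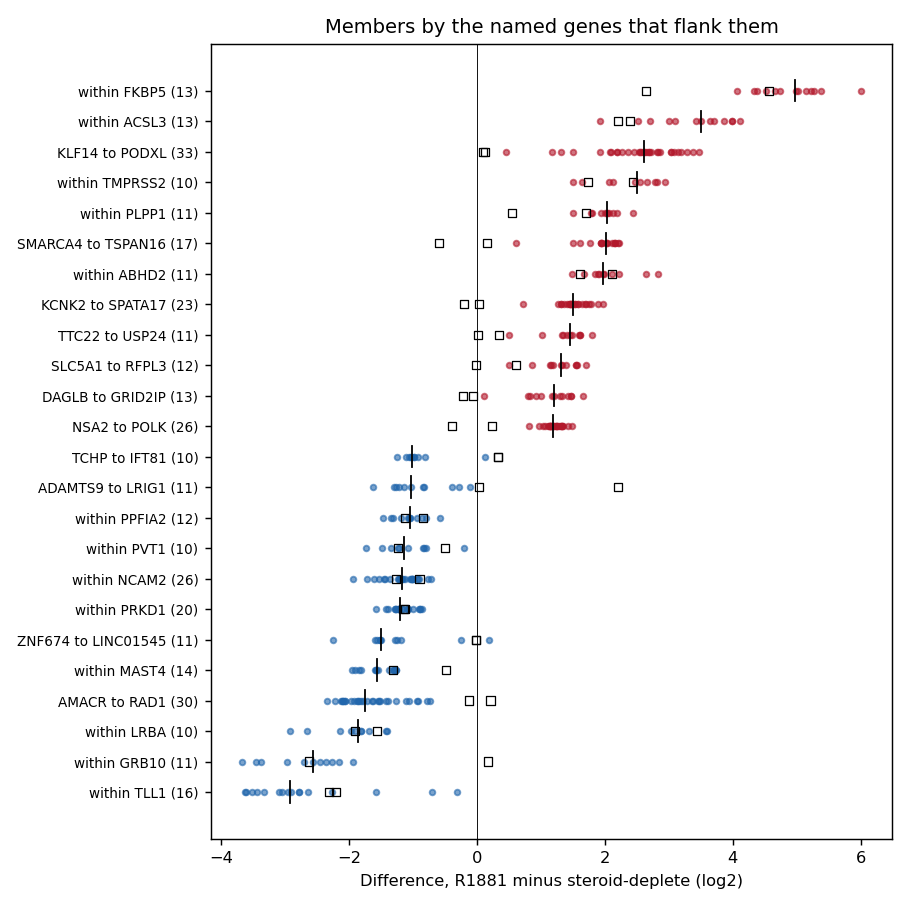
Differences (x axis, log2, R1881 minus steroid-deplete) of the members in the 24 intervals with 10 or more members and a median of at least 1 in size, named by the symbols that flank them with the number of members in brackets. Dots are members (red for intervals that are higher and blue for those that are lower), ticks their medians and open squares the first and last flanking named probe sets. Between genes the squares lie near 0, except at LRIG1, while within genes most lie among the dots.

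Members that moved apart from their neighbours were tested directly, by subtracting on each array the mean of both flanks. Of the 5217 members bright in both treatments, 16 were higher and 7 lower relative to their flanks (limma with the same limits). Of all 360311 probe sets without a symbol that had 2 flanks, 570 (0.158%) were higher and 613 (0.17%) lower. Lower calls were thus no more frequent among these members than in that background. With any 1 array left out, 5 to 12 were higher and 2 to 6 lower. Some flanks were dim, such as the POU2AF1 probe set beside 3 of the 7 (mean 3.47).

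The highest relative values were those of 3709448 and 3709449, between ALOX15B, a lipoxygenase gene, and PFAS, an enzyme gene of purine synthesis. Member 3709448 had 7.77, 8.15, 8.36 and 8.19 without and 11.29, 11.19, 10.95 and 11.08 with R1881, a difference of 3.01 ± 0.20 (adjusted p = 2.4e-05) and of 3.74 relative to its flanks (adjusted p = 2.8e-05). Member 3709449 differed by 2.70 and by 3.43 relative to its flanks, while the gene-level ALOX15B value differed by 0.02. Another group was the 8 members between SMARCA4 and TSPAN16, with relative differences of 1.98 to 2.37. Members 3415570 and 3415573, between LOC400036 and the epithelial keratin gene KRT18, differed by 2.04 and 2.02, and by 2.35 and 2.33 relative to their flanks.

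Among the lowest relative values were those of 3 members between ARHGAP20 and POU2AF1 that followed the cluster of COLCA1, which differed by -2.36 at gene level. Member 3390856 had 10.98, 10.78, 10.76 and 10.76 without and 8.47, 8.17, 8.09 and 7.94 with R1881, a difference of -2.65 ± 0.19 (adjusted p = 4.0e-05) and of -2.72 relative to its flanks. Members 3390854 and 3390859 differed by -2.38 and -2.12. Members 2852796 and 2852828, between AMACR and RAD1, differed by -2.07 and -1.85.

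Other relative calls were of members with a difference near 0 beside a flank that differed. Member 2469833, within the hormone-responsive gene GREB1, had 9.48 to 10.02 without and 9.69 to 10.27 with R1881, a difference of 0.11 (adjusted p = 0.87), while its flanks differed by 1.28 (adjusted p = 0.021) and 3.59 (adjusted p = 1.7e-05), so that the relative difference was -2.32 (adjusted p = 0.00067). Member 2757070, within CTBP1, a transcriptional corepressor gene, differed by 0.63 (adjusted p = 0.2) while its flanks differed by -2.46 and -1.41 and the gene by -1.73. Member 3581220, between AKT1 and AHNAK2, differed by 0.16 and its AHNAK2 flank by -3.69. Member 3466164, between UBE2N and TMCC3, differed by 0.27 and its TMCC3 flank by 4.61. The last of the 23 were 3025763, between TMEM140 and STRA8, which belongs to a run described next, and 2857280, between PLPP1 and SLC38A9, which differed by 2.05 (adjusted p = 0.00051).

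Members with consecutive identifiers were common. There were 844 runs of 2 or more, which held 2109 members, and 606 of these runs were pairs. Of the 238 runs of 3 or more, 22 were higher by 1 or more throughout, 13 were lower throughout, 173 stayed within 1 throughout, and none held differences of 1 or more in both directions. Of the 106 runs of 4 or more, 21 lay within 1 symbol.

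Of the 8 longest runs, 4 were nearly level. The longest, 10 members from 3843088 between the zinc finger genes ZNF805 and ZNF543, differed by -0.53 to -0.06, with run means of 9.29 to 9.46 without and 8.76 to 9.30 with R1881. The 9 from 4037738, between the mitochondrial genes ND5 and ND6, differed by -0.13 to 0.17. The 8 from 2451143, between RNPEP and PTPN7, differed by -0.36 to -0.07, and the 7 from 2779720 within PPP3CA, the gene of a calcineurin catalytic subunit, by -0.14 to 0.63. All members in these 4 runs were under the 2-fold limit of a call. The 8 from 3822757, between CD97 (an adhesion receptor gene) and TECR (fatty acid elongation), were all lower, within a narrow range of -0.83 to -0.65, with run means of 9.81, 9.45, 9.72 and 9.99 without and 9.20, 8.88, 9.18 and 8.65 with R1881. All 8 were under the 2-fold limit of a call, and the preceding cluster without a symbol differed by -0.56 (adjusted p = 0.0032, under 2-fold).

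Another 3 of the 8 moved by 1 or more. The 7 from 2815977, between NSA2 and POLK, were all higher by 1.03 to 1.31, with run means of 9.66, 9.80, 9.70 and 9.44 without and 10.97, 10.88, 10.82 and 10.64 with R1881. Their named flanks differed by -0.39 (adjusted p = 0.52) and 0.24 (adjusted p = 0.63). The preceding transcript cluster, which has no symbol, differed by 1.18 at gene level (adjusted p = 2.8e-07). All 7 were bright in both treatments and 2 were called, 2815978 (1.24 ± 0.18, adjusted p = 0.0029) and 2815983 (1.31 ± 0.20, adjusted p = 0.0043). The first lost its call with any 1 array left out, and the second with any but R1881 replicate 4 left out, and in those fits their differences were 1.17 to 1.35.

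In the 8 from 2750762 within TLL1, 6 differed by -3.62 to -1.58 and 2 by less than 1. Member 2750765 had 8.01, 8.48, 8.78 and 8.29 without and 5.29, 4.78, 4.56 and 4.44 with R1881. Member 2750767, 2 identifiers further, had 8.52, 8.28, 8.15 and 8.28 without and 7.97, 8.08, 7.69 and 8.24 with R1881, a difference of -0.31, and the first of the run, 2750762, differed by -0.70 (adjusted p = 0.079). The flanks of the run, both in TLL1, differed by -2.32 and -2.24.

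The 7 from 3025758, between TMEM140 and STRA8, differed within the run. The first 5 differed by -4.47 to -2.56. Member 3025762, the last of these 5, had 9.29, 9.49, 9.51 and 9.56 without and 5.82, 5.45, 4.79 and 4.80 with R1881. The next identifier, 3025763, had 8.44, 8.46, 8.43 and 8.48 without and 9.0, 8.69, 8.93 and 8.69 with R1881, a difference of 0.37 (adjusted p = 0.35), and 3025764 differed by 0.05 (adjusted p = 0.93). The TMEM140 flank differed by -2.95 (adjusted p = 2.0e-05) and the dim STRA8 flank (mean 2.48) by -0.32.

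**Figure D5:**
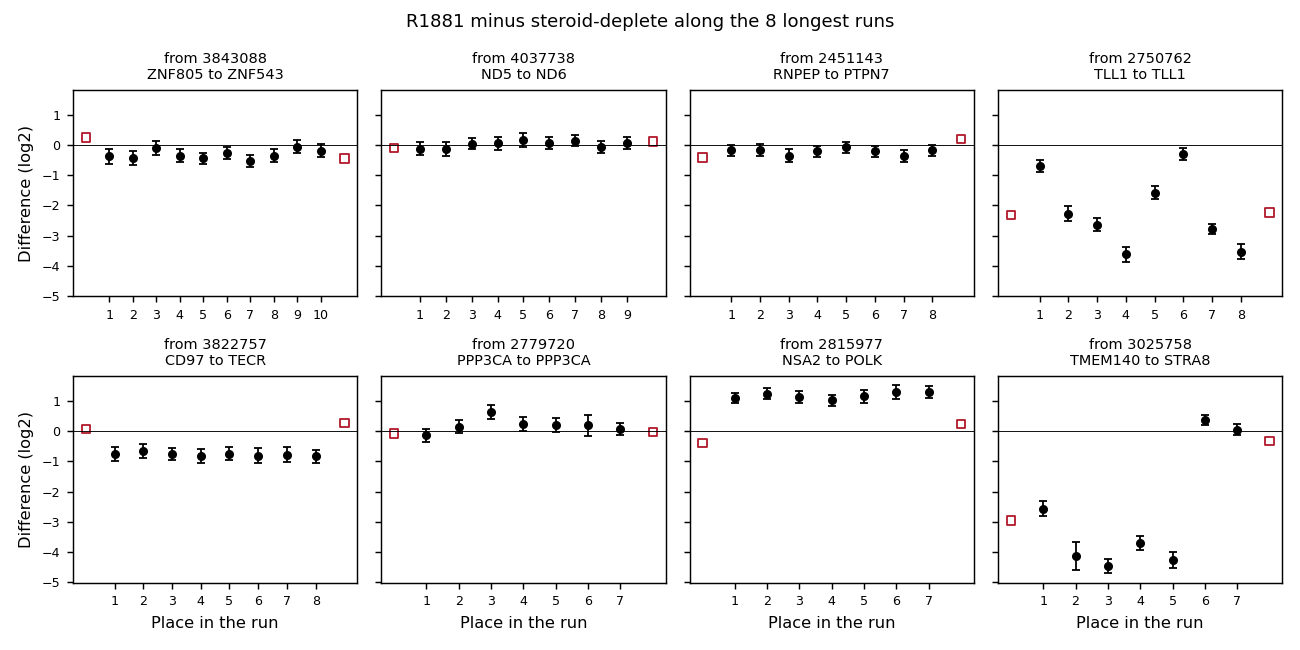
Difference (y axis, log2, R1881 minus steroid-deplete) of each member along the 8 longest runs of consecutive identifiers (x axis, place in the run), with bars for the moderated standard error and open squares for the named flank on each side. The run between NSA2 and POLK is even at 1.03 to 1.31, while the run between TMEM140 and STRA8 goes from -4.25 to 0.37 between 2 neighbouring members.

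Members around genes known to be androgen-induced were counted from a list of such genes. The list held 24 genes, 22 of them with probe sets, and 73 members lay within 14 of them. Of these, 72 passed the brightness limit in the R1881 arrays only, which fixed their direction, so the differences are a description: 71 were higher by 1 or more, with a median of 2.89 and a lowest value of 0.87. By gene, the median was 4.52 for 7 members of NCAPD3, 2.66 for 4 of PMEPA1, 2.75 for 5 of the transporter gene ABCC4, 2.23 for 6 of the elongation factor gene ELL2, 2.89 for 4 of SORD (sorbitol dehydrogenase) and 1.08 for 4 of the transcription factor gene ZBTB16. The gene-level differences of NCAPD3, PMEPA1, ABCC4, ELL2 and ZBTB16 were 4.43, 2.89, 2.45, 2.32 and 1.08. The 1 member bright in both treatments was called higher.

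A second list held noncoding RNA genes. Here, unlike in the list above, members with such a gene on at least 1 side were counted. Of its 26 genes, 19 had probe sets and 11 had members beside them, 82 in all. Only 8 of the 82, at 4 genes, had the gene on both sides. Of the 82, 63 were bright in both treatments, none was higher and 1 was lower by 1 or more. The 24 members beside MALAT1, an abundant nuclear RNA, differed by 0.07 to 0.80 (median 0.56). Among genes that host small nucleolar RNAs, the differences were -0.83 to -0.43 for 15 members beside GAS5, -0.81 to -0.42 for 4 beside ZFAS1, -1.03 for 1 beside SNHG1, and 0.15 and 0.45 for 2 beside EPB41L4A-AS1. The members beside GAS5 and ZFAS1 were under the 2-fold limit of a call, and the 1 beside SNHG1 was not tested, since it was not bright in both treatments. The 10 members beside RPPH1, the RNA of RNase P, differed by 0.10 to 0.59. Of 48 members beside 25 genes for ribosomal proteins or other housekeeping proteins (11 of them within a gene), 2 were higher and 3 lower by 1 or more. Their differences ran from -2.08 to 2.51, with a median of -0.17. None of the 32 bright in both treatments was called higher, and calls as lower were not counted for this list.

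The members after or within hosts of the microRNAs printed above were chosen after their values had been seen, among 79 members that followed 38 clusters with a microRNA symbol and another group within MIR99AHG. The let-7a and let-7b host, MIRLET7BHG, shares its cluster with PRR34-AS1, and 20 members between ATXN10 and PPARA followed it. All 20 had positive differences, of 0.27 to 1.21 (median 0.61). The treatments did not overlap in 13, beside 11.4% of all probe sets and 2846 of the 7804 members. Their mean was 8.35, 8.42, 8.41 and 8.33 in steroid-deplete and 9.0, 9.09, 9.15 and 8.82 in R1881 arrays, and the gene-level value differed by 0.61 ± 0.12 (adjusted p = 0.0011, under 2-fold). Member 3948907 had 8.13, 8.11, 7.90 and 7.81 without and 9.01, 9.43, 9.06 and 9.29 with R1881. None of the 11 that were bright in both treatments was called, and 5 of them had an adjusted p under 0.05.

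The cluster of HUWE1, a ubiquitin ligase gene that hosts miR-98 and let-7f, was followed by 2 members between HUWE1 and PHF8. Member 4009503 had 6.74, 7.23, 7.25 and 7.08 without and 8.59, 8.33, 8.70 and 8.59 with R1881, a difference of 1.47 ± 0.20, and 4009505 differed by 1.04 ± 0.26. They lay 4 and 2 identifiers from the PHF8 flank, which differed by 1.64 (adjusted p = 0.014), and 19 and 21 from the HUWE1 flank, which differed by 0.17 (adjusted p = 0.76). The gene-level value differed by 1.05 for PHF8 (adjusted p = 4.9e-07), a histone demethylase gene, and by -0.22 for HUWE1 (adjusted p = 0.08).

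The opposite direction was seen at MIR99AHG, the long noncoding host of miR-99a, let-7c and miR-125b. All 46 members within it had negative differences, of -1.76 to -0.19 (median -0.64), and 5 were lower by 1 or more. Their mean was 9.28, 9.61, 9.30 and 9.09 without and 8.62, 8.84, 8.79 and 8.41 with R1881. The treatments did not overlap in 28, beside 11.4% of all probe sets and 2846 of the 7804 members. Member 3915197 had 8.48, 9.12, 8.72 and 8.90 without and 7.54, 6.69, 7.48 and 6.49 with R1881. The 9 named MIR99AHG probe sets differed by -1.45 to 0.02 (median -0.55). None of the 35 members bright in both treatments was called, and 3 of them had an adjusted p under 0.05. The hosts of let-7c and of let-7a and let-7b, whose seeds are the same, thus differed in opposite directions, by amounts mostly under 2-fold. For members bright in 1 treatment only the rule fixed the direction, which leaves 35 members of MIR99AHG and 11 of MIRLET7BHG. None of these was called, and the contrast between the hosts was not tested.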

How the data were processed

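The 8 arrays, 4 per treatment, were deposited by the authors as 4 summaries each (32 samples). RNA was depleted of ribosomal RNA before labelling. The deposited RMA values are on the log2 scale. The deposited Iter-PLIER values are intensity on a linear scale, and the study's methods name PLIER at exon level. The submitters' processing notes name hg18, RMA and PLIER.

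Groups followed the labels. Symbols came from the array annotations, with 2859 older symbols updated through RefSeq synonyms. The probe set annotation lists only probe sets with a symbol, so members are probe sets it does not name here. The members and gene lists were chosen with earlier results of these data known. Exon-level RMA values were fitted with limma 3.58.1 in R 4.3.3 (all 8 arrays, no block, Benjamini-Hochberg over all 620335 probe sets). Calls needed an adjusted p under 0.005 and 2-fold, and were made only for members of 8 or more in both treatments. Standard errors are moderated. On simulated data for this comparison over 620335 probe sets, 46% of changes of 1.2 log2, 90% of 1.5 and 99% of 2 were recovered. Named members were the 10 brightest, the 10 highest and 10 lowest differences, the 8 longest runs of at least 4, and the 3 on each side of the limit. Intervals, relative calls and microRNA hosts were named after their values were seen. The number of arrays limits the precision.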

Additional observations from a re-analysis of the deposited data

Results flagged for a closer look

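Among 76 groups of 4 arrays (the 30 members named for level or difference and the means of the 8 longest runs), 6 held 1 array whose gap to the nearest other took most of the group's range, while chance gives about 1 in 20. Steroid-deplete replicate 3 had 5.49 at 3399575 within NCAPD3, against 4.41 to 4.44 on the other 3 (gap over range 0.966). R1881 replicate 3 had 4.79 at 3143649 within MMP16, against 2.86 to 3.01 (0.92), and 5.75 at 4028747 between ZFY and TTTY7, against 3.55 to 3.76 (0.906). Steroid-deplete replicate 1 had 12.88 at 2695318 within ASTE1, against 13.02 to 13.03 (0.921), and 12.71 at 3261718 between FBXL15 and SLC68A1, against 12.92 to 12.95 (0.868). Steroid-deplete replicate 2 had a mean of 9.69 over the run from 4037738 between ND5 and ND6, against 9.96 to 10.01 (0.832).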

How the results depend on the processing

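The number of members followed the limit, with 13162 at 7.5 and 2708 at 9, and so did the runs of 2 or more, with 1460 and 290. A limit of 1.5 left 355 higher and 262 lower members. Calls of members bright in both treatments (72 higher, 34 lower) were 113 and 75 with Iter-PLIER, 121 and 93 with an intensity trend and robust variances, 114 and 81 with only probe sets of at least 5 tested, and 184 and 177 at an adjusted p under 0.05 without a fold limit. The methods' t-test with Benjamini-Hochberg gave 19 lower. Leaving out 1 array gave 32 to 50 higher and 10 to 16 lower, and leaving out steroid-deplete replicate 1 and R1881 replicate 4 together 15 and 4. With the replicate number as a block, 16 and 9 were called. The numbers did not pair the arrays (deviations of same-numbered arrays correlated at 0.029 to 0.051, and 2 of 8 arrays correlated best with their own number). Relative to flanks (16 higher, 7 lower), calls were 27 and 13 with 3 flanks on each side, 30 and 11 with flanks of at least 5, and 70 and 29 with Iter-PLIER, and 5 to 12 and 2 to 6 with 1 array left out. The cause of these moves was not tested, beyond fewer arrays or fewer probe sets in the fit. All 1130 members with a difference of 1 or more kept their sign in Iter-PLIER, 1063 of them at 1 log2 or more. Counting also probe sets that the annotation does not list was not run, since it lists only those with a symbol. Of 1254 values for 114 named members under alternatives, none changed sign against a difference of at least 1, 17 lost a call, 7 gained one and 21 moved by more than the spread between arrays. Signal near background limits those members bright in 1 treatment only whose other group is dim, since that group has little room to fall. Many were not so far apart, with a median difference of 0.512 for members bright in R1881 arrays only and -0.717 for those bright in steroid-deplete arrays only.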
